A study of Mus musculus with 2 samples.

Results

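Transcripts of 10 T cell identity genes were followed through the cells sorted from mouse thymus: Cd3d, Cd3e, Cd3g, Cd4, Cd8a, Cd8b1, Rag1, Rag2, Satb1 and Lck. All 10 were among the 20451 genes of the deposited tables. They were chosen by their known roles and by their levels in T cells, dendritic cells and both genotypes of these same cells, so their levels are given as a description and support no claim about the choice.

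The T cell receptor signals through the CD3 chains, which are encoded by Cd3d, Cd3e and Cd3g. The coreceptors CD4 and CD8 bind MHC class II and class I and bring the kinase Lck to the receptor, and CD8 on conventional T cells is a pair of an alpha chain (Cd8a) and a beta chain (Cd8b1). RAG1 and RAG2 cut and join the receptor genes in immature thymocytes, and Satb1 encodes a chromatin organiser that is abundant in thymocytes. Outside the T lineage, mouse dendritic cells of type 1 are known for CD8 alpha without beta, and plasmacytoid dendritic cells and some macrophages for CD4.

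Single-cell transcriptomes came from the thymus of 7-week-old mice of the Mgl2DTR_eGFP line (Mgl2DTR), given 500 ng of diphtheria toxin and taken 48 h later. They also came from wild-type B6 mice (labelled B6WT, here WT), for which the labels do not say whether toxin was given. The name Mgl2DTR joins Mgl2, a lectin gene of type 2 dendritic cells, to the diphtheria toxin receptor, and toxin kills mouse cells that carry that receptor. Thymus was digested with collagenase, magnets removed thymocytes with CD90.2, and live cells were sorted by stains for CD11c and CD11b, so the number of T cells in the data was set by the depletion and the sort. A single genotype hashtag was carried by 7433 Mgl2DTR cells (71521759 UMIs, median 6930 a cell) and 11586 WT cells (116719748 UMIs, median 7820 a cell), and the tables of both genotypes shared 0 cell barcodes. Mgl2 itself was at 17.9 CPM in Mgl2DTR and 109.2 CPM in WT cells, in the direction of the labels.

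The labels name no animals. Each genotype therefore counted as 1 sample, differences between genotypes had no replicate check, and no test was made. Levels are in CPM, the UMIs of a gene summed over cells scaled to 1000000 UMIs of the same cells. UMIs from the 3′ end count molecules, so levels of different genes were set side by side without a length correction. A range in parentheses is an exact 95% interval and covers counting error only. Cells were clustered without the 10 genes, and clusters were named from other markers with the ending "-like", which rebuilt names can get wrong. Genes that vary with the 10 still shaped the clusters. Named classes were cDC1-like (3377 cells), cDC2-like (1192), activated dendritic cell-like with Ccr7 (activated DC-like, 2176), plasmacytoid dendritic cell-like (pDC-like, 2196), macrophage-like (852), monocyte-like (946), neutrophil-like (1339), B cell-like (522), NK or ILC-like (340) and T cell-like (2776). Droplets with more than 1 cell bear on which cell a transcript came from. The 9829 droplets called with a pair of hashtags, 34% of all, were left out. Of these, 4755 paired the hashtags of both genotypes, and 2762 Mgl2DTR and 2312 WT droplets paired the genotype hashtag with another one. That hashtag is named IL4RaKO in the hashtag counts and uncategorized in the annotation, and the sample labels do not describe its cells. Droplets paired with it need not all hold more than 1 cell. Cells lying among any of the 9829 droplets were called doublets, from 14% of cDC1-like to 50.9% of macrophage-like cells. These calls carry the same doubt. Called cells were kept unless stated.

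The genes lie in groups in the genome (GRCm38, also named mm10; GENCODE M21 annotation), and all are protein-coding. Cd3g (chr9:44969572-44980431, minus strand) and Cd3d (chr9:44981786-44987339, plus strand) start 1354 bases apart and run away from each other, with Cd3e (chr9:44998740-45009627, minus strand) beside them. Cd8b1 (chr6:71322788-71337494, plus strand) ends 35932 bases before Cd8a (chr6:71373427-71379173, plus strand), and Cd4 (chr6:124864692-124888221, minus strand) lies elsewhere on the same chromosome. Rag2 (chr2:101624718-101632529, plus strand) and Rag1 (chr2:101638282-101649501, minus strand) face each other, with 5752 bases between their ends. B230118H07Rik overlaps both in the annotation and was counted as a gene of its own with 2303 UMIs, against 2825 for Rag1 and 209 for Rag2, so reads there may have been split and the Rag levels are uncertain. Satb1 lies at chr17:51736187-51833290 (minus strand) and Lck at chr4:129548344-129573641 (minus strand).

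The promoters of 3 genes are shown because they belong to the neighbouring pair with nearly the same pattern over clusters, Cd3g and Cd3d, and to Cd8a, whose pattern was unlike theirs. The sequences are from RefSeq (GRCm38.p6, coding strand, from 250 bases before the start to 50 after it), at chr9:44980382-44980681 on the minus strand for Cd3g, chr9:44981536-44981835 on the plus strand for Cd3d and chr6:71373177-71373476 on the plus strand for Cd8a. Capitals mark every CANNTG, the E-box bound by E proteins, which reads alike on both strands.
Cd3g: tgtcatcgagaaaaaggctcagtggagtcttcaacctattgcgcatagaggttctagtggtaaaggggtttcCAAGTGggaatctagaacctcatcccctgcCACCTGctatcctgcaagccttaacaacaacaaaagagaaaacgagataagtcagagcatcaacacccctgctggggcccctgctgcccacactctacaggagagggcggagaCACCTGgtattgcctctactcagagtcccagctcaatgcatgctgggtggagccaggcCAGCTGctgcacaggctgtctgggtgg
Cd3d: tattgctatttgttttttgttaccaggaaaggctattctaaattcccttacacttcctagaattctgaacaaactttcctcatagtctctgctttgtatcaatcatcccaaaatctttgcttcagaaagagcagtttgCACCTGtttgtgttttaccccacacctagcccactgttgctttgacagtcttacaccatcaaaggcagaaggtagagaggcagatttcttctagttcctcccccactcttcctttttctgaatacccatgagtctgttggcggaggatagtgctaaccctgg
Cd8a: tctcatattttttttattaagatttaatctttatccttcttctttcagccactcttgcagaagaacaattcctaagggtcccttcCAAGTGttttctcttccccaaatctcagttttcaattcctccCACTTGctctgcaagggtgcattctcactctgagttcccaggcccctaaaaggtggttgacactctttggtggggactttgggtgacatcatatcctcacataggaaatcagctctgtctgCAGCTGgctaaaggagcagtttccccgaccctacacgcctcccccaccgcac
The Cd3g promoter held 4 E-boxes, that of Cd3d 1 and that of Cd8a 3. An E-box was present in 72.3% of all 32851 RefSeq promoters of this length, so its presence sets none of these genes apart. TGTGGT, the core of the RUNX motif, was in none of the 3 on either strand and in 16.8% of all promoters. GGAAGT, a core of ETS motifs, was in the Cd3d window alone of these 3, and in 23.8% of all promoters. These matches describe the letters of the window and not binding. Of the 10 genes, 8 had a promoter in the table, and the others are Cd4 and Cd8b1.

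In T cell-like cells, all 10 genes were detected in both genotypes. The CD3 genes and Satb1 had the highest levels. Cd3d was at 844.5 CPM in Mgl2DTR and 775.1 CPM in WT T cell-like cells, Cd3g at 743.0 and 628.9 CPM, Cd3e at 563.9 and 478.1 CPM, and Satb1 at 814.5 and 955.3 CPM. Lck was at 248.4 CPM in Mgl2DTR and 244.2 CPM in WT. These class levels mix clusters of unlike stage and called doublets, and the mixture differed between genotypes. T cell-like cells numbered 461 of 7433 in Mgl2DTR and 2315 of 11586 in WT. Without called doublets, Cd3d was at 1091.0 CPM in Mgl2DTR and 1158.8 CPM in WT, and Cd3g at 937.3 and 936.9 CPM. Cd3e was then at 719.5 and 717.0 CPM, Satb1 at 1016.0 and 1446.5 CPM and Lck at 310.5 and 366.3 CPM. The higher CD3 levels of Mgl2DTR were thus not kept.

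The clusters separated a stage with Rag from a stage without it. Cluster 19, named cortical from Arpp21, Aqp11, Dntt and others, held 21 Mgl2DTR and 505 WT cells. In its WT cells, Rag1 was at 996.9 CPM, Rag2 at 69.4 CPM, Cd8a at 849.5 CPM, Cd8b1 at 1024.5 CPM, Cd4 at 246.1 CPM and Satb1 at 1791.9 CPM. The 21 Mgl2DTR cells gave 1702.1 CPM for Rag1 from 72 UMIs, too few cells for a comparison. Rag2 had 6.74 UMIs per 100 of Rag1 in this cluster, both genotypes together. The mature cluster 1, with S1pr1 and Ms4a4b, held 371 Mgl2DTR and 1376 WT cells and the same CD3 chains, with Cd3d at 1210.7 CPM over both genotypes. There Rag1 was at 6.22 CPM and Rag2 at 0.159 CPM, while Cd8a was at 164.2 CPM in Mgl2DTR and 191.4 CPM in WT and Cd4 at 136.3 CPM over both. The cycling mature cluster 35 (32 and 73 cells) had 0 UMIs of both Rag genes. Cluster 16 (35 and 316 cells) was deeper, with a median of 16385 UMIs in Mgl2DTR and 15598.5 in WT against 3129 and 3119.5 in cluster 1, 95.2% of its cells were called doublets, and its Cd3d level was 290.7 CPM.

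Joint detection in single cells followed the stages. So that depth did not set the shares, each cell was thinned to 2000 UMIs and shallower cells were left out. In WT cells of cluster 19, 31.6% of 187 cells (25.0 to 38.7%) held UMIs of both Cd4 and Cd8a, and 65.2% (57.9 to 72.0%) a UMI of Rag1 or Rag2. Thinning left under 20 Mgl2DTR cells there, and no share was computed. In cluster 1, both coreceptors were found together in 0.319% of 313 Mgl2DTR cells (0.00809 to 1.77%) and 1.23% of 1136 WT cells (0.675 to 2.06%). Cd4 alone was found in 24.0% of Mgl2DTR cells (19.3 to 29.1%) and 22.2% of WT cells (19.8 to 24.7%), and Cd8a alone in 15.7% (11.8 to 20.2%) and 19.5% (17.3 to 22%). The intervals of the genotypes overlap for each. Rag1 or Rag2 was found in 0 of 313 Mgl2DTR cells, which allows a share of up to 0.958%, and in 0.440% of WT cells. At this depth 60.1% of Mgl2DTR and 57.0% of WT cells of cluster 1 showed neither coreceptor, so a cell without a UMI is not shown to lack the gene.

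**Figure D1:**
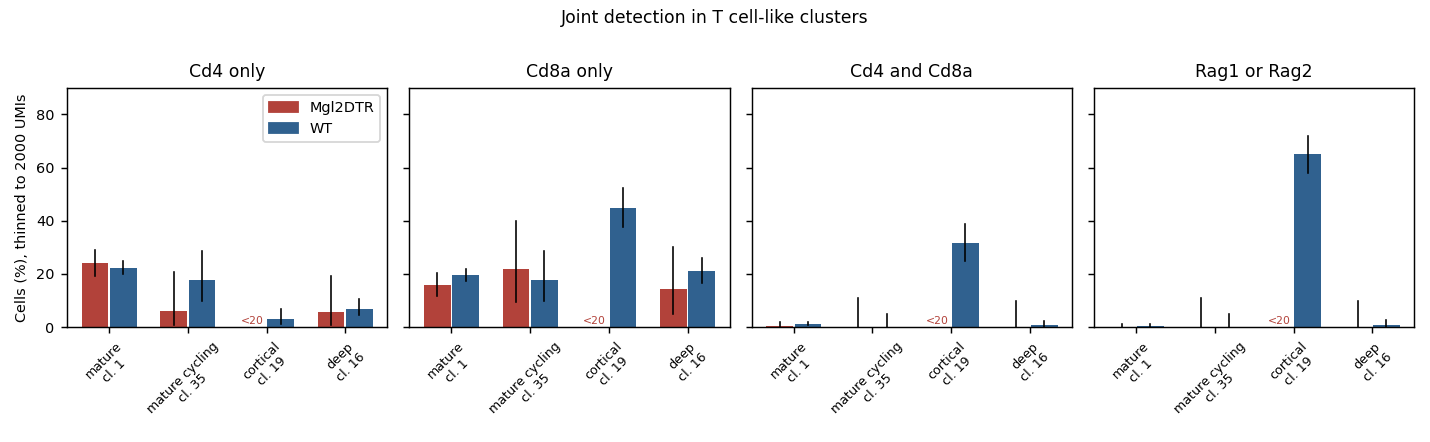
Share of cells in T cell-like clusters (percent, y axis) with UMIs of Cd4 only, Cd8a only, both, or Rag1 or Rag2, for Mgl2DTR (red, left) and WT (blue, right) after thinning to 2000 UMIs. Lines are exact 95% intervals and "<20" marks fewer than 20 cells. WT cells of cluster 19 stand out with 31.6% holding both coreceptors and 65.2% a Rag gene, against 1.23% and 0.440% in WT cells of cluster 1.

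Over all classes, the genes divided into those highest in T cells and those as high or higher elsewhere. The order of Cd3d levels ran from T cell-like through NK or ILC-like (129.2 CPM in Mgl2DTR, 111.6 CPM in WT) and B cell-like cells (34.7 and 47.5 CPM) down to cDC1-like cells, at 3.56 CPM in Mgl2DTR (73 UMIs) and 4.03 CPM in WT (142 UMIs). Cd3e and Cd3g were also lowest in cDC1-like cells of WT, at 2.04 and 2.19 CPM, and in Mgl2DTR the lowest Cd3e level was 1.59 CPM in cDC2-like cells, from 4 UMIs. Within the dendritic cells, Cd3d was 3.58 CPM in Mgl2DTR and 9.03 CPM in WT cDC2-like cells, 8.77 and 16.8 CPM in activated DC-like cells, and 4.89 and 13 CPM in pDC-like cells. Every dendritic level was far under those of T cell-like cells. Lck and Satb1 were lowest in cDC1-like cells as well, at 1.17 and 5.36 CPM in Mgl2DTR and 1.73 and 7.07 CPM in WT. Rag1 was at 0.195 CPM in Mgl2DTR and 0.341 CPM in WT cDC1-like cells, under T cell-like levels of 35.7 and 144.9 CPM. Rag2 had 0 UMIs in cDC1-like, cDC2-like, pDC-like, monocyte-like, neutrophil-like and NK or ILC-like cells of both genotypes.

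The coreceptor genes broke this order, when whole classes were compared. Cd4 was higher in pDC-like cells than in T cell-like cells, at 236.6 CPM in Mgl2DTR and 197.3 CPM in WT pDC-like cells, against 95.3 and 107.1 CPM in T cell-like cells. Macrophage-like cells followed with 71.7 CPM in Mgl2DTR and 117.3 CPM in WT. Cd8b1 was at 838.9 CPM in Mgl2DTR and 514.9 CPM in WT pDC-like cells, against 211.8 and 258.9 CPM in T cell-like cells. Among T cell-like cells WT cells of the cortical cluster 19 were higher than the WT pDC-like class in both, as given above. Cd8a was at 204.7 and 176.9 CPM in pDC-like cells, 96.7 and 115.4 CPM in cDC1-like cells, 92.8 and 133.3 CPM in activated DC-like cells and 85.6 and 88.9 CPM in cDC2-like cells, with T cell-like cells at 161.0 CPM in Mgl2DTR and 253.5 CPM in WT. Monocyte-like cells had the lowest Cd8a, at 14.1 CPM in Mgl2DTR and 19.8 CPM in WT.

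**Figure D2:**
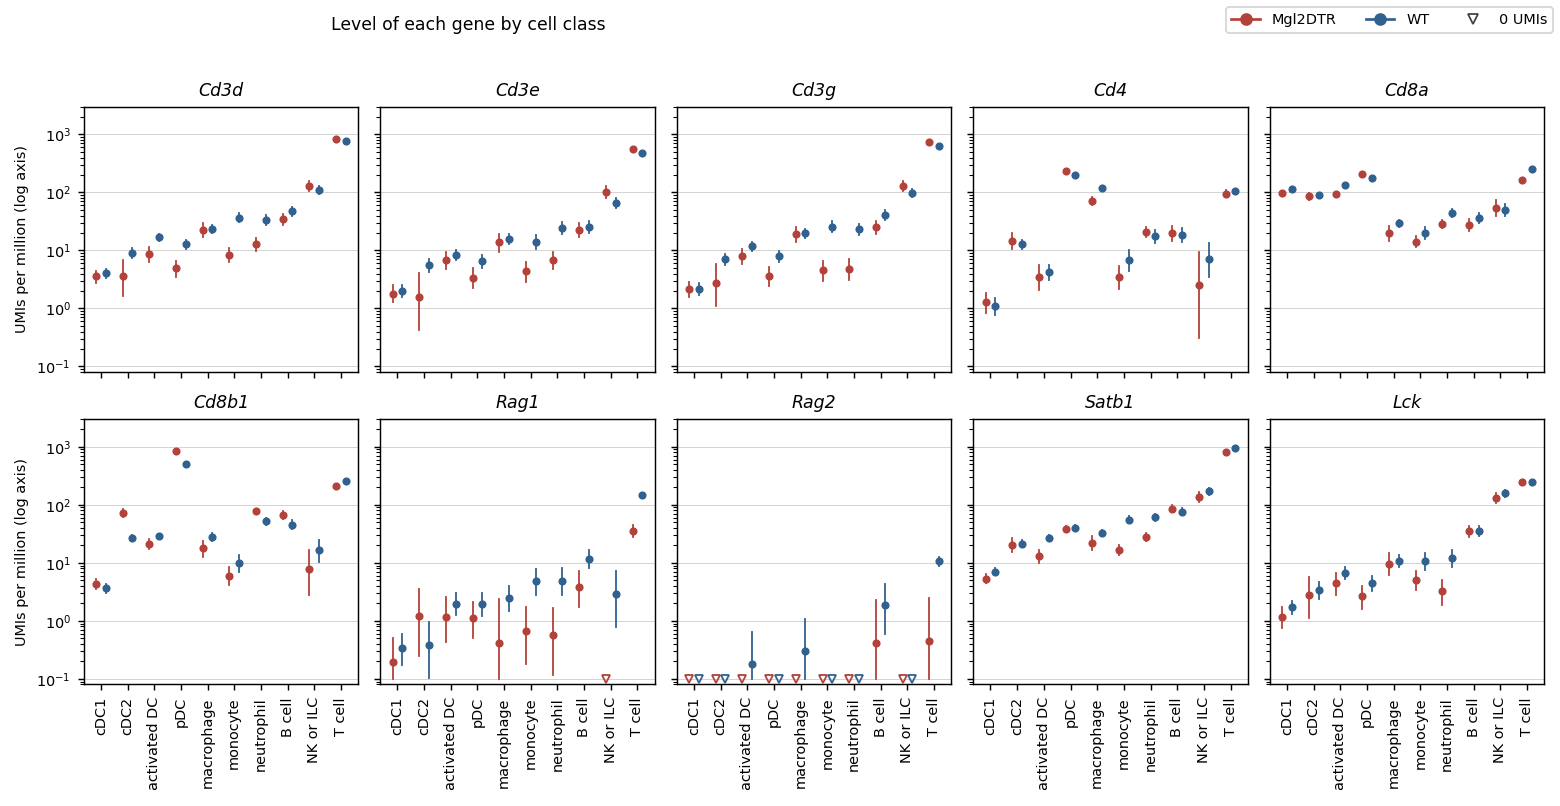
Level of each gene (CPM, log axis) in 10 cell classes for Mgl2DTR (red, left) and WT (blue, right), with exact 95% Poisson intervals and open triangles at 0 UMIs. Cd3d, Cd3e, Cd3g, Rag1 and Rag2 peak in T cell-like cells, whereas Cd4 and Cd8b1 have their highest class level in pDC-like cells, where Cd8b1 reaches 838.9 CPM in Mgl2DTR and 514.9 CPM in WT.

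To see which of these transcripts kept the proportions they have in T cells, each gene was counted per 100 UMIs of 5 T reference genes (Trac, Trbc1, Trbc2, Themis and Bcl11b), both genotypes together. Trac, Trbc1 and Trbc2 encode constant regions of the receptor. Within 1 pool, RNA carried over from T cells would keep its genes near the ratios of T cells. The T cell-like clusters gave the range for comparison. Cd3d, Cd3e and Cd3g summed to 46.9 to 54.7 per 100 T reference UMIs in the 9 other classes, inside the 28.0 to 65.0 of the T cell-like clusters. None of the 3 CD3 genes, nor Rag1 or Rag2, was outside its T cell range in any of the 9 classes, the interval considered. For Rag1 the T cell range itself was wide, from 0 in cluster 35 to 12.1 in cluster 19.

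Cd8a, Cd8b1 and Cd4 lay far outside. Cd8a stood at 711.9 per 100 T reference UMIs in cDC1-like cells (662.5 to 765.8), 69.8 times the highest T cell-like cluster (10.2), and at 472.0 in pDC-like, 235.9 in cDC2-like and 177.9 in activated DC-like cells. Cd8b1 stood at 1642.8 in pDC-like cells, 132.2 times the highest T cell-like cluster (12.4), but at 25.8 in cDC1-like cells. Cd4 stood at 535.7 in pDC-like, 94.2 in macrophage-like and 35.5 in cDC2-like cells, against 1.99 to 3.03 in T cell-like clusters, and at 7.65 in cDC1-like cells, from 65 UMIs. All 3 were above the T cell range in most classes: Cd4 and Cd8a in 8 of 9 and Cd8b1 in 7 of 9. In NK or ILC-like cells, Cd4 (0.941) and Cd8b1 (2.27) were below it.

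Satb1 and Lck lay between. Satb1 was above its T cell range of 17.0 to 30.1 in 6 of 9 classes, with 98.2 per 100 T reference UMIs in pDC-like cells and 42.2 in cDC1-like cells. Lck was above its range of 6.13 to 7.67 in 3 classes: NK or ILC-like (25.4), B cell-like (18.0) and cDC1-like cells (10.0, 7.91 to 12.5), the last by a small margin on 85 UMIs. pDC transcripts were also spread over the other classes: 11 of 11 pDC markers had UMIs in every class and genotype, summing to 477.5 CPM in Mgl2DTR and 495.1 CPM in WT cDC1-like cells and 1376.4 and 1164.7 CPM in neutrophil-like cells. Cd4 and Cd8b1 were in excess of T cell proportions in neutrophil-like and B cell-like cells too, and the part of these pDC transcripts in that was not tested.

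**Figure D3:**
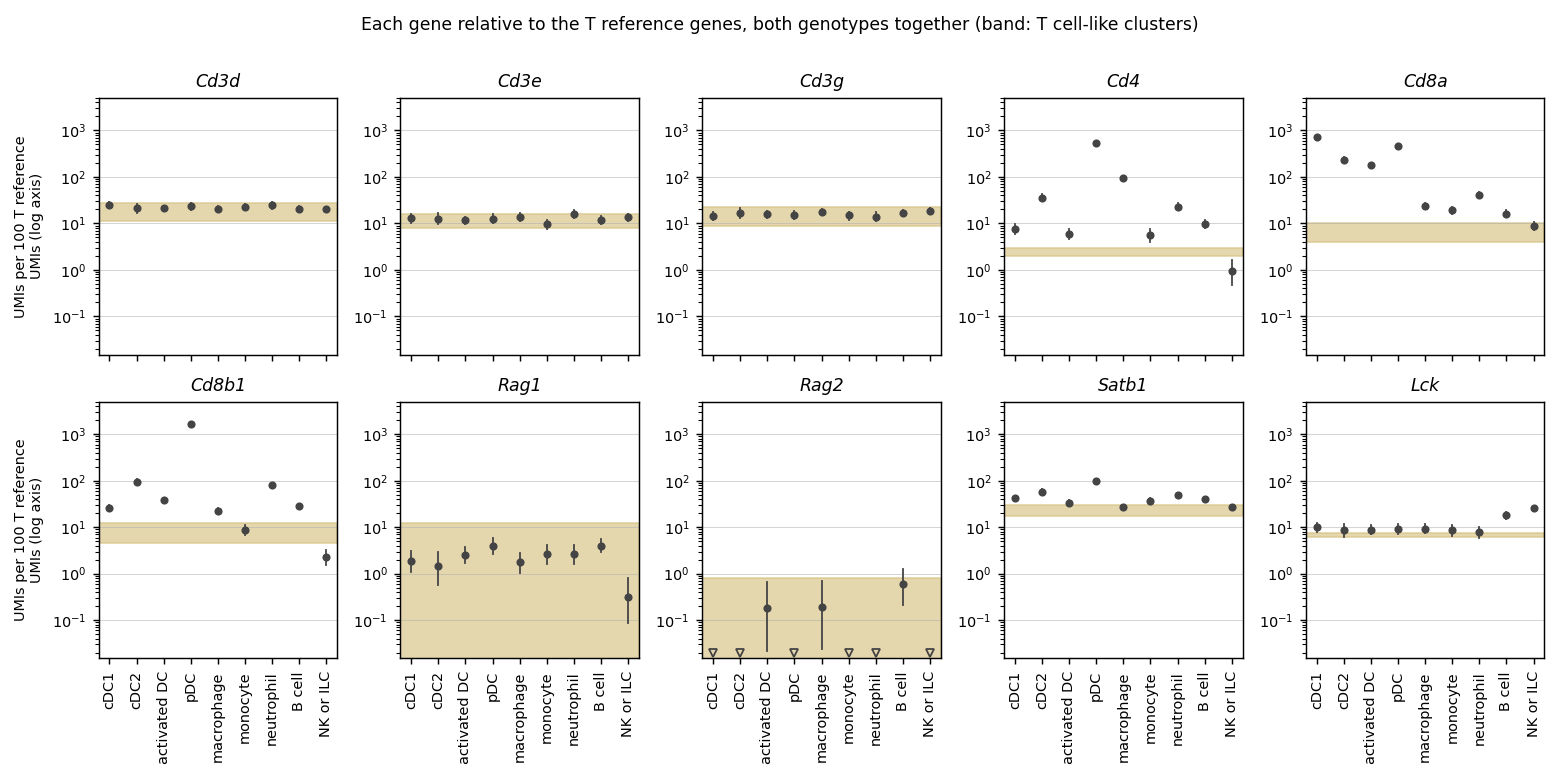
UMIs of each gene per 100 UMIs of the T reference genes (log axis) in 9 classes, both genotypes together, with exact 95% intervals; the band spans the T cell-like clusters and open triangles mark 0 UMIs. The CD3 genes stay in or across the band in all 9 classes, whereas Cd8a in cDC1-like cells (711.9) and Cd8b1 in pDC-like cells (1642.8) lie far above it.

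Shares of single cells were read next. Among cDC1-like cells thinned to 2000 UMIs, 16.7% held a Cd8a UMI. Only 101 of these 3368 cells held a T reference UMI, so leaving them out could not move the share, and it stayed at 16.7%. Unthinned, at a median depth of 15202 UMIs in Mgl2DTR and 15425 in WT, it was 54.5%. The comparison cells were neutrophil-like and B cell-like cells, where the thinned share was 3.83% and 3.09%, at median depths of 2086 UMIs in Mgl2DTR and 4174 in WT for neutrophil-like cells and 5487 and 9526 for B cell-like cells. Cd8b1 was found in 0.772% and Cd4 in 0.178% of thinned cDC1-like cells, both below those comparison cells, and Cd3d in 1.01%. Cd8b1 per 100 Cd8a UMIs, a ratio that needs no T reference, was 3.62 in cDC1-like cells (3.15 to 4.14), 21.7 in activated DC-like cells, 110.9 for cluster 1 and 121.8 for cluster 19. In cDC1-like cells the alpha chain transcript was therefore found nearly without the beta chain transcript.

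The cDC1-like class consisted of the resting cluster 0 and the cycling cluster 8, and Cd8a was alike in both. Cluster 0 had 91.3 CPM in Mgl2DTR and 113.9 CPM in WT, and cluster 8 had 108.9 and 118.3 CPM. The cDC2-like clusters were unlike each other. Cluster 15, with Cd209d and Cd209e among its leading genes, had Cd8a at 190.9 CPM in Mgl2DTR and 174.3 CPM in WT, and cluster 10, with Mmp12 and Epcam, had 7.62 and 20.7 CPM. After thinning and without a T reference UMI, 19.4% of 93 Mgl2DTR and 17.0% of 393 WT cells of cluster 15 held a Cd8a UMI, against 0.746% of 134 and 2.63% of 494 cells of cluster 10. Cluster 10 was at or below the shares of the neutrophil-like and B cell-like comparison cells. Whether its own cells expressed Cd8a was not tested. Cells of cluster 15 also held pDC markers, at a summed 4175.1 CPM in Mgl2DTR and 2945.3 CPM in WT. Among cells of cluster 15 without a UMI of Siglech, Klk1 or Cox6a2, 3 of those markers, or of the T reference genes, Cd8a was still at 124.0 CPM in Mgl2DTR (35 UMIs in 27 cells) and 129.2 CPM in WT (174 UMIs in 136 cells). That selection of cells was made after the data were seen.

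Activated DC-like cells carried Cd8a in every cluster, with 122.5 CPM for cluster 4 and 122.2 CPM for cluster 7, both genotypes together. Among cells without a T reference UMI, thinned, 11% of Mgl2DTR and 11.9% of WT cells in cluster 4 and 8.44% and 13.2% in cluster 7 held it, above the comparison cells, although the interval of Mgl2DTR cells in cluster 7 (4.57 to 14%) overlaps that of Mgl2DTR neutrophil-like cells (2.14 to 5.79%). In thinned activated DC-like cells, the Cd3d level was 64.0 CPM in 164 cells with a T reference UMI and 6.04 CPM in 1656 cells without, Satb1 was at 170.7 and 16.6 CPM, and Cd8a at 79.3 and 99.0 CPM. The Cd3d UMIs themselves were split about evenly, with 21 in the cells with a T reference UMI and 20 in those without. In monocyte-like cells Cd3d was at 138.5 CPM (18 UMIs) and 5.95 CPM (10 UMIs). In cDC1-like cells Cd8a was at 99.0 CPM in cells with a T reference UMI and 107.3 CPM in cells without.

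pDC-like cells held all 3 coreceptor transcripts at once, and few T cell transcripts. In the main cluster 2, in which 1.99% of cells were called doublets, Cd4 was at 304.0 CPM in Mgl2DTR and 276.7 CPM in WT, Cd8a at 246.5 and 200.4 CPM, and Cd8b1 at 1072.0 and 709.5 CPM. Cd3d there was at 5.12 and 6.17 CPM. Among its cells without a T reference UMI, thinned, 66.2% of 748 Mgl2DTR cells (62.7 to 69.6%) and 54.9% of 825 WT cells (51.4 to 58.3%) held Cd8b1, and 39.6% and 37.8% held Cd4. The beta chain transcript outnumbered that of the alpha chain, with 434.9 Cd8b1 UMIs per 100 Cd8a UMIs in Mgl2DTR and 354.1 in WT, the reverse of cDC1-like cells. Both Cd4 and Cd8a were found in 10.9% of Mgl2DTR and 9.63% of WT cells of cluster 2, and Rag1 or Rag2 in 0.253% and 0.232%. Satb1 was at 44.5 CPM in Mgl2DTR and 47.5 CPM in WT.

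Macrophage-like cells held Cd4 well above the other coreceptor genes. Cd4 was found in 19.2% of thinned macrophage-like cells and in 17.9% of those without a T reference UMI. Cd4 had 416.0 UMIs per 100 Cd8b1 UMIs there, against 32.6 in pDC-like cells and 66.2 in cluster 1. In cluster 6, with C1qa, C1qb and C1qc, Cd4 was at 64.8 CPM in Mgl2DTR and 114.7 CPM in WT. In cluster 27, with Vcam1 and Slc40a1, it was at 101.4 and 130.2 CPM. T cell transcripts were frequent in these cells too: 12 of 12 T cell markers had UMIs, summing to 122.3 CPM in Mgl2DTR and 187.6 CPM in WT.

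**Figure D4:**
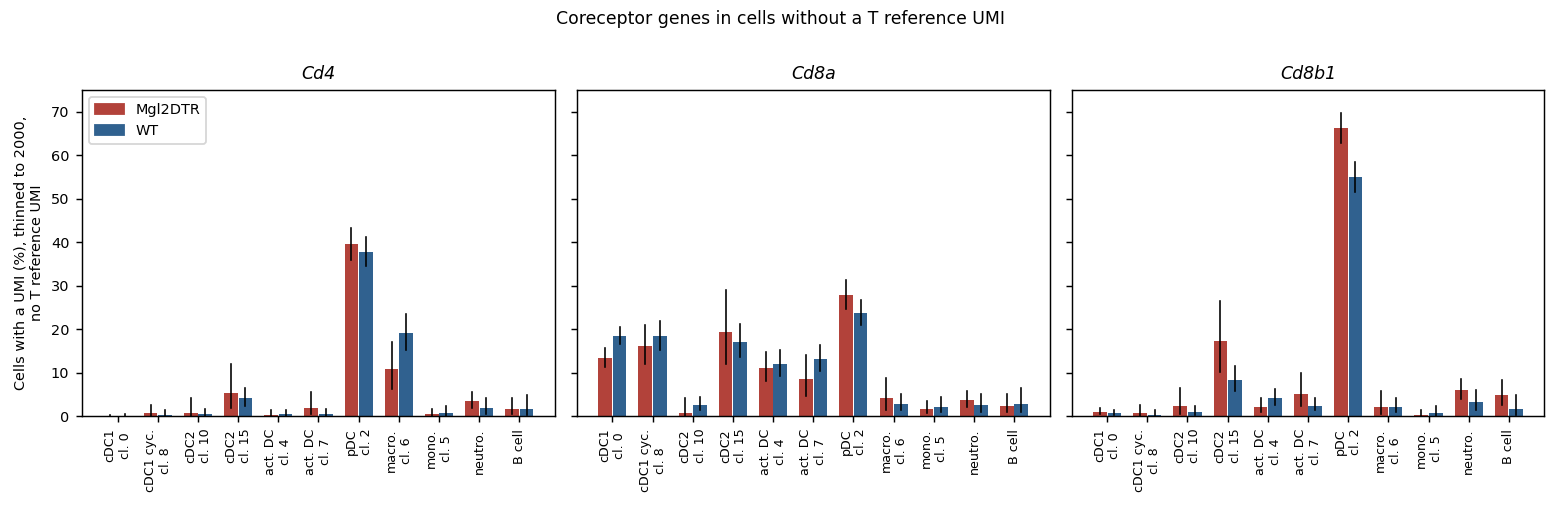
Share of cells (percent, y axis) with a UMI of Cd4, Cd8a or Cd8b1 among cells without a T reference UMI, thinned to 2000 UMIs, for Mgl2DTR (red, left) and WT (blue, right), with exact 95% intervals. Cd4 stands out in pDC-like cluster 2 (39.6% and 37.8%) and macrophage-like cluster 6 (10.9% and 19%), Cd8a in the dendritic clusters shown other than cluster 10 (8.44% to 27.8%), and Cd8b1 in cluster 2 (66.2% and 54.9%).

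How the transcripts were spread over cells also differed. The 5% of cells with the most UMIs of a gene held 23.0% of the Cd4 and 22.1% of the Cd8b1 UMIs of pDC-like cells and 29.4% of the Cd8a UMIs of cDC1-like cells. The same share for the summed CD3 genes was 81.1% in pDC-like, 86.8% in macrophage-like and 85.8% in monocyte-like cells, against 13.4% in cluster 1. A gene with few UMIs is held by few cells in any case, so this share falls with level as well as with evenness. In single cells the highest counts were 47 Cd8a UMIs in a cDC1-like cell, 68 Cd8b1 UMIs and 20 Cd4 UMIs in pDC-like cells.

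The next question was which of these levels differed in Mgl2DTR against WT within a class. Calls went by size alone: a gene with 50 or more UMIs over both genotypes was called when its ratio reached 1.5-fold in either direction and its interval lay entirely on that side of 1. The calls compare 1 set of cells of each genotype and carry no replicate error. The background for each class is the share of all measured genes past the same rule. Rag1 and Rag2 were too low to be measured in the 8 classes outside T and NK or ILC-like cells.

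In cDC1-like cells, 0 of 8 measured genes were called, against a background of 1.29% lower and 1.37% higher. Cd8a, the gene with most UMIs there, was at a ratio of 0.838 (0.794 to 0.885), below 1 but within the 1.5-fold bound. In the mature T cell-like cluster 1, 0 of 8 were called, against 2.4% lower and 2.46% higher. Satb1 had the lowest ratio there, 0.745 (0.704 to 0.788). In pDC-like cells, Cd8b1 was higher at 1.63 (1.57 to 1.69), against 1.93% of genes higher, and Cd4 (1.20) and Cd8a (1.16) were not called. In cluster 2 alone, the Cd8b1 ratio was 1.51, at the edge of the rule, and without called doublets in the class it was 1.47, under it.

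The CD3 genes were lower in Mgl2DTR in several classes, but not in all. Their sum had a ratio of 0.908 in cDC1-like, 0.943 in macrophage-like and 1.31 (1.12 to 1.53) in NK or ILC-like cells, none past the rule. In pDC-like cells Cd3d (0.377), Cd3e (0.522) and Cd3g (0.456) were lower, 3 of 8 against a background of 1.91%. Their sum had a ratio of 0.434, but 1.00 without called doublets and 0.989 in cluster 2. Without called doublets the summed ratio was still lower in other classes: 0.160 in cDC2-like, 0.289 in monocyte-like, 0.572 in neutrophil-like and 0.603 in activated DC-like cells. In B cell-like cells it was 0.721 with all cells, short of the rule, and 0.395 without called doublets. In cDC1-like (0.954) and macrophage-like cells (1.40) it was not called without called doublets. In cDC2-like cells the same 3 genes were lower, at 0.397, 0.289 and 0.396, 3 of 7 against 3.34%, from 9, 4 and 7 UMIs in Mgl2DTR and 95, 58 and 74 UMIs in WT. In activated DC-like cells Cd3d (0.523) and Satb1 (0.478) were lower, 2 of 8 against 2.12%, with 3.89% of genes higher. Cd8a was not called there at 0.696, was called lower at 0.613 without called doublets, and was at 0.939 (0.824 to 1.07) among cells without pDC marker or T reference UMIs. The share of cDC2-like cells was 3.23% of Mgl2DTR and 8.22% of WT cells, and T cell-like cells were fewer in Mgl2DTR as given above. Neutrophil-like cells were at 12.6% and 3.5%. Shares of sorted cells bear on one another, so a lower share does not show that cells were lost. Both genotypes were profiled in 1 pool, and how far the lower T cell share among Mgl2DTR cells bore on the CD3 ratios was not tested.

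Monocyte-like and neutrophil-like cells had the most calls, and both classes mix clusters in proportions that differed between genotypes. Neutrophil-like cluster 11 held 644 of 934 Mgl2DTR but 124 of 405 WT cells. The summed CD3 ratio was 0.644 (0.298 to 1.54) in cluster 11, 0.319 in cluster 18 and 0.217 in cluster 24. Monocyte-like cluster 34 held 86 of 538 Mgl2DTR and 22 of 408 WT cells. In cluster 5, which held the other monocyte-like cells, the summed CD3 ratio was 0.245. In monocyte-like cells 5 of 7 genes were lower, with Cd3g at 0.176 (0.110 to 0.273), Cd3d at 0.228, Satb1 at 0.298, Cd3e at 0.308 and Lck at 0.468, against 7.95% of genes lower and 6.1% higher. In neutrophil-like cells 6 of 8 were lower, from Cd3g at 0.205 to Cd8a at 0.650, against 4.46% lower and 6.17% higher. Cd8b1 was at 1.49 (1.24 to 1.79), short of the rule, and at 2.89 (1.59 to 5.71) without called doublets, where it had 69 UMIs in Mgl2DTR and 13 in WT. Siglech, the pDC gene, was at 114.0 CPM in Mgl2DTR and 80.3 CPM in WT neutrophil-like cells. In those without pDC marker or T reference UMIs, Cd8b1 was at 3.86 CPM in Mgl2DTR (12 UMIs) and 3.88 CPM in WT (7 UMIs). These UMIs were too few to be measured, and this selection takes out pDC transcripts by construction. The part of pDC transcripts in the Cd8b1 ratio was not tested. In monocyte-like cells the 12 T cell markers, all with UMIs in both genotypes, summed to 52.4 CPM in Mgl2DTR and 256.4 CPM in WT, and their part in these ratios was not tested. In B cell-like cells Cd3g was lower at 0.608 (0.437 to 0.839), 1 of 8 against 2.93% lower and 5.45% higher. Some cells held no UMIs of the T reference genes and of 3 pDC markers. Among them the summed CD3 ratio was 1.03 in neutrophil-like and 1.16 in activated DC-like cells, neither past the rule. In monocyte-like cells it was 0.725, on too few UMIs to be measured. Cd3d, Cd3e and Cd3g had 9, 8 and 9 UMIs there in Mgl2DTR and 10, 3 and 6 in WT. Leaving out cells with T reference UMIs takes out T cell transcripts by construction, so these ratios cannot show what set the CD3 calls.

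Cd4 in macrophage-like cells was lower at 0.611 (0.515 to 0.722), from 170 UMIs in Mgl2DTR and 791 UMIs in WT. Cd8b1 (0.632) and Satb1 (0.666) were also lower there, so 3 of 8 were called against a background of 2.51% lower and 5.82% higher. Among macrophage-like cells without pDC marker or T reference UMIs, Cd4 was at 71.3 CPM in Mgl2DTR and 127.5 CPM in WT, a ratio of 0.559 (0.440 to 0.704), and in such cells of cluster 6 the ratio was 0.527. In the same cells Cd8b1 and Satb1 had 5 and 11 UMIs in Mgl2DTR and 14 and 26 UMIs in WT, too few to be measured. Without called doublets the Cd4 ratio was 0.557 (0.438 to 0.702). As a mean over cells each scaled to its own total, it was 0.732, short of the rule, and the macrophage-like cells differed in depth, with a median of 4643.5 UMIs in Mgl2DTR and 10685.5 in WT.

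In cDC2-like cells, Cd8b1 was higher at 2.68 (2.22 to 3.24), with 72.4 CPM in Mgl2DTR and 27.0 CPM in WT, against 3.28% of genes higher. Its UMIs came mostly from cluster 15, with 163.7 CPM in Mgl2DTR and 52.6 CPM in WT, where Siglech, a pDC gene, was at 320.0 and 173.5 CPM. In cDC2-like cells without UMIs of 3 pDC markers and the T reference genes, Cd8b1 was at 4.2 CPM in Mgl2DTR and 7.59 CPM in WT, from 5 and 37 UMIs. No direction is read from so few UMIs. Leaving out cells with pDC markers also takes out pDC transcripts by construction, so these levels cannot show what set the call.

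Other genes of T cell receptor signalling and T cell regulation were read from a list of 32, among them Cd247, Zap70, Lat, Thy1, Tcf7 and Bcl11b. In monocyte-like cells 12 of 20 measured list genes were lower and 0 higher. Their median log2 ratio was -1.16, against -0.03 over all genes, of which 7.95% were lower. The lowest were Trbc2 (0.147), Lef1 (0.152), Trac (0.166) and Cd5 (0.182). In pDC-like cells 9 of 25 were lower and 0 higher, against 1.91% and 1.93% of all genes, with a median of -0.39, the lowest being Tcf7 (0.322), Bcl11b (0.343) and Thy1 (0.349). Activated DC-like cells had 7 of 24 lower and 2 higher, against 2.12% and 3.89%, from Thy1 (0.400) and Trac (0.417) up to Lat (1.78) and Ptpn22 (1.64). In cDC1-like cells 2 of 22 were lower, Bcl11b (0.468) and Lef1 (0.561), against 1.29%, with a median of 0.05 against -0.01. In cluster 1, 0 of 30 were lower and 1 was higher, against 2.4% and 2.46%. The higher gene was Ptpn22 (1.62), a phosphatase that restrains receptor signalling. Neutrophil-like cells had 8 of 18 lower and 1 higher, against 4.46% and 6.17% of all genes. B cell-like cells had 7 of 22 lower and 1 higher, against 2.93% and 5.45%. cDC2-like cells had 3 of 18 lower and 0 higher, against 3.34% and 3.28%, and macrophage-like cells 2 of 23 and 0, against 2.51% and 5.82%.

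The genes were also compared by pattern over the 36 clusters with at least 50 cells, by Pearson's r of log2(CPM + 10). These correlations describe clusters that share a library and, for many, carried-over transcripts. Cd3d, Cd3e and Cd3g were alike to each other at 0.99, and Cd3d to Lck at 0.94 and to Satb1 at 0.91. Cd3d was less like Cd4 (0.41) and Cd8a (0.45). Cd4 and Cd8b1 were alike at 0.91, Cd8a and Cd8b1 at 0.72, and Rag1 and Rag2 at 0.91. Outside the 10, and among 9049 genes with at least 1000 UMIs, the nearest to all 3 CD3 genes was Trbc2 (0.977 for Cd3d, 0.966 for Cd3e, 0.972 for Cd3g). Next came Trbc1 and Trac for Cd3d and Cd3g, and Trac and Cd6 for Cd3e. The nearest to both Cd4 (0.884) and Cd8b1 (0.938) was Ccr9, a chemokine receptor of thymocytes and pDC, and Cd4 was followed by Hivep3 and Traf4, Cd8b1 by Traf4 and Zfp131. Rag1 and Rag2 were nearest to Endou (0.974 and 0.945), Aqp11 and Arpp21. Lck was nearest to Skap1 (0.984), an adaptor of receptor signalling, then to Cd247 and Txk, and Satb1 to Lat (0.958), Hdac7 and Cd27. Cd8a had the least similar neighbours, Zfp280d (0.776), Tspyl4 (0.773) and Lztfl1 (0.767).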

How the data were processed

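Cells of both genotypes were profiled as 1 pool with the 10x Chromium 3′ v3 kit, with hashtag oligonucleotides marking genotype, per the labels. The submitters' processing notes name Cell Ranger 6.0.0, Seurat 4.0.4 and the build mm10; which annotation was counted is not stated there. Deposited for genes were raw UMI counts (20451 genes, 28926 cells), and for the 3 hashtags raw counts likewise. A deposited annotation gives each cell's hashtag call, used for genotype, and a score, the margin between its hashtags. No deposited cell types were used. Cells with a pair of hashtags (9829) or none (78) were left out.

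The 10 genes, the list of 32 and the markers were chosen with earlier results of these data known. Cells were clustered with leidenalg 0.10.2, igraph 0.11.9, scikit-learn 1.9.0, pandas 2.3.3, scipy 1.17.1 and numpy 2.4.6 under Python 3.11.15 on 2000 variable genes without the 10 genes and Mgl2, giving 41 clusters, with seed 1 and Leiden resolution 1. A cluster was named by the marker list with the largest share of raised genes, and needed 3 of them and 1 among its 10 leading genes. Clusters with 4 or more raised cycling markers and at least 50% of their list raised, such as cluster 8, needed none among the leading genes. A cluster stayed unnamed when these needs were not met. It also did when another list had 60% of its genes raised or more genes among the leading 10. No doublet caller was run. Cells with 12 or more droplets with a pair of hashtags among their 50 nearest neighbours were called doublets, a rule that need not find true doublets. UMIs were summed by class and genotype, giving CPM with exact Poisson intervals, ratios with exact conditional intervals and shares with exact Clopper-Pearson intervals, all at 95% and for counting error only. A share of 0 allows up to 3 cells of the total. With 1 sample per genotype no p-values were computed. The ratio and thinning code was tested on simulated data. For each of the 10 genes, the 3 genes most alike over clusters were named, and of the list of 32 at most 4 genes a class, those with the largest ratios past the size rule. Alternatives left out called doublets or cells with over 5% mitochondrial UMIs or under 1000 UMIs, kept the 10 genes in clustering, used resolution 0.5, other thinning depths and other UMI minimums, or averaged over cells. Figures were drawn with matplotlib 3.10.9.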

Additional observations from a re-analysis of the deposited data

How the results depend on the processing

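Of 291 alternative values for 47 results, 193 kept their direction and side of the threshold, or moved within the counting interval. No paired analysis was possible because each genotype was 1 sample. Counting depth limits Rag1, Rag2 and the CD3 genes outside T cells, where few UMIs carry a ratio. The selection of cells without UMIs of 3 pDC markers and T reference genes was chosen after seeing the data and keeps fewer UMIs. Unless stated, the cause of a shift was not tested.

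Without called doublets, Cd4 in macrophage-like cells was at 125.9 CPM (105.4 CPM with all cells) and Cd8b1 in pDC-like cells at 882.4 CPM (658.4 CPM). With the 10 genes kept in clustering, these were 85.2 and 642.0 CPM and Cd8a in cDC1-like cells 105.6 CPM (108.6 CPM). As a mean over cells, they were 149.5, 733.6 and 105.3 CPM, and at resolution 0.5 Cd4 in macrophage-like cells was 85.7 CPM.

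Of the ratios of Mgl2DTR over WT, Cd4 in macrophage-like cells (0.611) was 0.732 as a mean over cells and Cd8b1 in pDC-like cells (1.63) was 1.47 without called doublets, both short of the size rule. Cd8b1 in cDC2-like cells (2.68) was at 0.554 in cells without UMIs of 3 pDC markers and T reference genes. With 5 UMIs in Mgl2DTR and 37 in WT, that ratio fell under the minimum of 50 UMIs. The summed CD3 genes turned in activated DC-like cells (0.637) to 1.04 as a mean over cells and 1.16 in that selection, in neutrophil-like cells (0.298) to 1.03 in that selection, and in pDC-like cells (0.434) to 1.0 without called doublets. They were 0.628 in pDC-like cells after thinning to 2000 UMIs, no longer called. In monocyte-like cells (0.225) they were 0.725 in the selection, on too few UMIs to be measured. The selection takes out T cell and pDC transcripts by construction, so its CD3 and Cd8b1 ratios cannot show what set the calls. T cell identity genes lower, summed over 8 classes, numbered 23, against 7 without called doublets and 8 with a minimum of 200 UMIs. With all cells, 7 or 8 of the T cell identity genes were measured in each class. Of the 23, 6 were called again without called doublets, 2 were measured and not called, and 15 fell under 50 UMIs. Both alternatives leave fewer genes measured. Genes higher numbered 2, against 4 with at most 5% mitochondrial UMIs and at least 1000 UMIs. With all cells the share of all genes lower ran from 1.29% in cDC1-like to 7.95% in monocyte-like cells. The share higher ran from 1.37% in cDC1-like to 6.17% in neutrophil-like cells. No share of all genes was computed for the alternatives, so whether their counts exceed it was not tested.

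Per T reference UMI and relative to all T cell-like cells, Cd8a in cDC1-like cells stood 106.7 times higher, against 120.1 without called doublets and 69.8 to 175.1 over single T cell-like clusters. Cd8b1 in pDC-like cells stood 234.5 times higher, against 514.5, 157.9 with the 10 genes kept, and 132.2 to 367.2 over clusters. Cd4 in macrophage-like cells stood 32.2 times higher, against 189.3 without called doublets, 24.7 with the 10 genes kept, 24.0 at resolution 0.5 and 47.3 for the cluster giving the highest value. The summed CD3 genes in cDC1-like cells stood at 0.98, and at 0.805 to 1.87 over clusters.

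Shares followed the thinning depth by construction. The Cd8a share of cDC1-like cells (16.7%) was 54.5% unthinned and 9.87% at 1000 UMIs, and without T reference UMIs (16.7%) 53.9% and 9.85%. The Cd4 share of macrophage-like cells (19.2%) was 34.5% and 11.5%, 23.7% without called doublets, 15.5% with the 10 genes kept and 15.4% at resolution 0.5; without T reference UMIs (17.9%) these were 32.3%, 10.9%, 23.2%, 14% and 13.9%. In the cortical clusters 19 and 38, both genotypes together, Cd4 with Cd8a (25.5%) was 31.7% without called doublets, 31.6% at resolution 0.5 and 45.4% unthinned, and Rag1 or Rag2 (59.8%) was 66.1% without called doublets and 85.3% unthinned.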

Other observations

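Several clusters that stayed unnamed held the 10 genes beside markers of other cells. Cluster 14 (51 Mgl2DTR and 427 WT cells), led by Ccl22, Apol7c and Ccl5 of activated dendritic cells, had Cd3d at 375.3 CPM in Mgl2DTR and 382.5 CPM in WT, Cd8a at 180.6 and 171.0 CPM, Satb1 at 457.6 and 540.9 CPM and Rag1 at 22.1 and 92.2 CPM, and 60.7% of its cells were called doublets. Cluster 32 (12 and 50 cells, 100% called doublets), led by Ccr9 and Siglech, had Cd8b1 at 678.6 CPM and Cd3d at 504.1 CPM over both genotypes. Cluster 22 (209 and 140 cells), led by Gzmc, Xcl1 and Klra9 of NK and innate-like lymphocytes, had Cd3g at 717.7 CPM and Lck at 266.5 CPM but Cd4 at 21.0 CPM and Cd8b1 at 34.0 CPM. In NK or ILC-like cluster 28, Lck was at 247.6 CPM and Satb1 at 254.9 CPM, with Cd3e at 21.9 CPM.

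Satb1 in B cell-like cells was at 85.2 CPM in Mgl2DTR and 75.8 CPM in WT, a ratio of 1.12 (0.921 to 1.37). Among B cell-like cells without UMIs of 3 pDC markers and the T reference genes it was at 77.2 CPM in Mgl2DTR (98 UMIs, 195 cells) and 31.8 CPM in WT (30 UMIs, 108 cells), a ratio of 2.43 (1.60 to 3.79). Without called doublets the ratio was 1.80. In the same selection, Cd8a in cDC2-like cluster 10 was at 7.71 CPM in Mgl2DTR (7 UMIs) and 21.5 CPM in WT (76 UMIs), a ratio of 0.358 (0.139 to 0.774). Both were singled out after their values were seen, and neither has a replicate.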
